A study of Mus musculus with 9 samples.

Results

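A set of 10 genes of the Notch pathway were followed across the mouse libraries of this study: the receptors Notch1 and Notch3, the ligands Dll1 and Dll3, the transcription factors Hes1, Hes5, Hey1 and Hey2, and the Deltex genes Dtx1 and Dtx4. They were chosen by name, with earlier results of these data known, as 10 of the 14771 named genes of the deposited table. Each had 1 transcript in it. The study profiled brain tumours induced by Foxr2, a forkhead transcription factor, in 9 libraries of messenger RNA, with 3 libraries in each of 3 groups. The AG group was astroglia of strain C57BL/6 with the genotype p53 DN and Nf1 shRNA. The BS group was tumour cells of the brainstem and the OB group tumour cells of the olfactory bulb, both of a 129;C57BL/6 mix with Foxr2 overexpression and p53 cko. All groups thus carried an altered p53. Strain, tissue, Foxr2, the kind of p53 allele and the Nf1 hairpin changed together between AG and either tumour group, and their parts cannot be told apart. The labels give no age, promoter or Cre driver and do not say whether libraries came from separate animals or cultures, so a p-value here measures the spread among samples only, and that spread may be technical.

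Notch receptors are cut within the membrane after binding a ligand of the Delta or Jagged family on a neighbouring cell, and the released intracellular domain joins the DNA-binding protein RBPJ at target genes. The Hes and Hey genes are the best known of these targets, and encode repressors that hold neural progenitors back from differentiation, partly by repressing proneural genes. Dll1 activates receptors on neighbouring cells, whereas Dll3 is known to act mainly within the cell that makes it. The Deltex proteins encoded by Dtx1 and Dtx4 are ubiquitin ligases that bind the receptor's intracellular domain.

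AG libraries held 14987773 to 19868282 reads, BS libraries 12680832 to 15282668 and OB libraries 11300273 to 13927771. Foxr2 was read at 0 or 1 read in each AG library, and had a mean of 9526 normalized reads in BS and 5763 in OB, in the direction of the labels. Of 8 astrocyte markers in the table, 4 were below 10 normalized reads in each AG library, Gfap among them at 0.83 to 3.27, whereas Gja1 was at 4961 to 5396, Sox9 at 2328 to 2947 and Slc1a3 at 752.9 to 855.5. The sum of the 8 ran from 8602 to 8693 in AG libraries, from 17391 to 30952 in BS libraries and from 6749 to 34933 in OB libraries. These markers did not move together. Slc1a3 had means of 19940 in BS and 13120 in OB, was at 88.4 in OB_257, and was called in neither group. Gja1, at means of 1493 in BS and 353 in OB, was called lower in OB. S100b was called higher in OB, Aldoc in both groups and Sox9 in neither. Gfap, Aldh1l1 and Aqp4 were not tested. The sum of the 6 pericyte and smooth muscle markers in the table ran in AG from 58744 to 62374, in BS from 47.8 to 117, and in OB from 136 to 188. Acta2 and Tagln made up nearly all of that AG sum. The sum of the 8 oligodendrocyte precursor markers ran in AG from 17.4 to 22.5, in BS from 48143 to 95546, and in OB from 46172 to 87236, with Olig2 and Ptprz1 at 0 in AG. Pdgfra was called in neither tumour group, and was at 2.52 in BS_287 and 1.11 in OB_257 beside 3.94 to 8.71 in AG. Sox10 and Gpr17 were called higher in OB and not in BS, where BS_287 held them at 3.35 and 0. The others were called higher in both groups. The sum of the 7 neuronal markers was 1062 to 1089, 4486 to 6635 and 4607 to 9613 in the same order, with Rbfox3 and Snap25 at 0 in AG and at most 13.4 and 6.71 in any tumour library, and Tubb3 called in neither tumour group. The 3 ependymal markers summed to 2072 to 2551 in AG and at most 228 in either tumour group, and the 3 microglial markers to 59.2 to 71.0 in AG and 32.0 to 103 in tumours. Nearly all of the ependymal sum in AG was Foxj1, at 2042 to 2540. Foxj1 and Tmem212 were called lower in both tumour groups. Dynlrb2, at most 1.09 in AG and 13.3 in OB_287, was not tested. The oligodendrocyte precursor, neuronal, pericyte and ependymal sums did not overlap between AG and either tumour group, and their part in the differences of the Notch genes was not tested. The microglial sum overlapped AG in BS and OB. Of its genes, Tmem119 was called lower in BS, at 0.84 to 1.07 beside 19.2 to 27.2 in AG (limma adjusted p = 0.00786), and not in OB. Cd68 was called in neither group, and Csf1r was not tested. In bulk RNA, fewer cells of a type and less RNA per cell cannot be told apart. Reads shared between annotated transcripts of a gene may also be missing from these values. A marker near 0 in all groups, such as Aqp4, may thus be undercounted rather than absent.

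Against AG, the receptors Notch1 and Notch3, the ligand Dll1 and the target Hes5 rose in both tumour groups. Dtx1 rose in OB and Dll3 in BS. Hes1, Hey1, Hey2 and Dtx4 passed the test in neither group. A gene was called at a Benjamini-Hochberg adjusted p under 0.05 in a limma fit on log2(normalized reads + 1) over 10576 genes. In OB against AG, 5 of the 10 genes were called higher, where 16% of all tested genes were, and 0 were called lower, where 19% were. Without adjustment, 6 were higher and 1 lower at p under 0.05, as were 2261 and 2547 of the 10576 tested genes. In BS against AG, 5 were called higher against 15.6% of all genes and 0 lower against 19.5%, and without adjustment 6 were higher and 0 lower, as were 2215 and 2582 of all. On recovered reads edgeR called 6 higher and 0 lower in each comparison, beside 1960 higher and 1764 lower of all genes in OB and 1899 and 1780 in BS. DESeq2 called 7 higher and 0 lower in OB, beside 2235 and 2046 of all genes, and 6 higher and 0 lower in BS, beside 2193 and 2077. All 10 genes passed the filter of 10 normalized reads in 3 libraries. Dll1, Dll3, Hes5 and Dtx1 passed it through tumour libraries alone, so the counts of genes called higher partly follow from which genes passed. The 10 genes were also chosen with earlier results of these data known. Notch2, a receptor called lower in both tumour groups, is not among them. The median log2 difference of the 10 genes was 3.48 in OB and 3.18 in BS, beside -0.01 and -0.03 over all tested genes. Both comparisons use the same AG libraries.

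**Figure D1:**
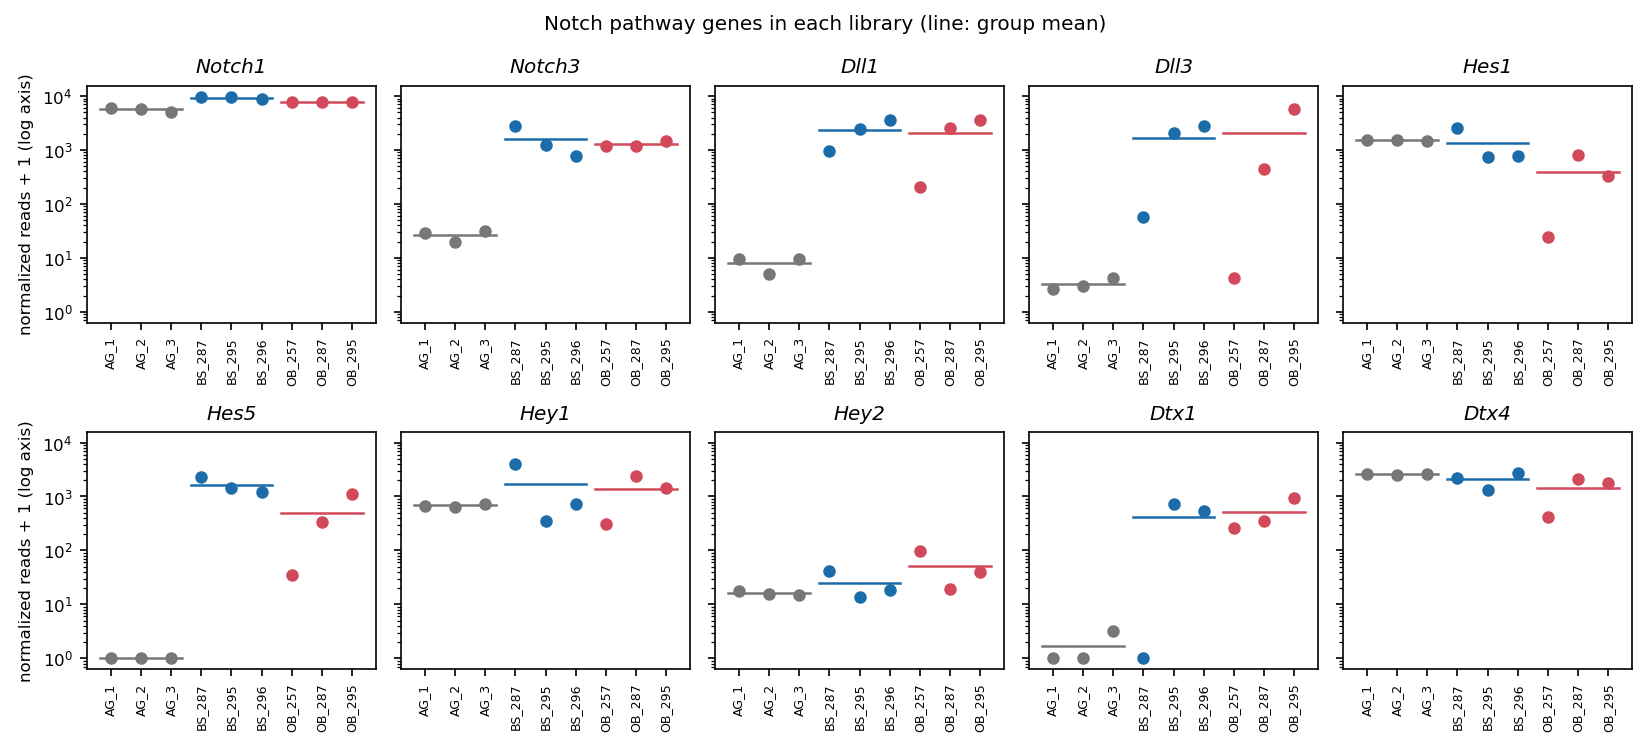
Normalized reads of the 10 Notch genes in each of the 9 libraries, by group, on a log scale of value + 1. Notch3, Dll1 and Hes5 lie above AG in all 6 tumour libraries, whereas Hey1 in both tumour groups spans the AG values.

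Notch1, a receptor that maintains neural progenitors, was at 6098, 5722 and 5089 normalized reads in AG, at 9547, 9708 and 8893 in BS_287, BS_295 and BS_296, and at 7873, 7623 and 7804 in OB_257, OB_287 and OB_295. The 3 groups did not overlap: AG was lowest and BS highest. Group means were 5636 ± 509.9 (SD, n = 3) for AG, 9382 ± 432 for BS and 7767 ± 129 for OB. On the log2 scale it rose by 0.74 ± 0.12 (SE) in BS (limma adjusted p = 0.00232), a ratio of means of 1.66, and by 0.47 ± 0.12 in OB (limma adjusted p = 0.0195), a ratio of 1.38. The call in OB ended without AG_2 (limma adjusted p = 0.0682), without AG_3 (0.0926), with variance without a trend (0.0663) and with array weights (0.0582).

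Notch3, a receptor best known in vascular smooth muscle and pericytes, was at 28.3, 18.7 and 30.5 normalized reads in AG. It reached 2767, 1237 and 760.6 in BS_287, BS_295 and BS_296, and 1177, 1178 and 1497 in OB_257, OB_287 and OB_295. Each tumour library was far above each AG library, and BS_287 was the highest. Group means were 25.9 ± 6.27 (SD, n = 3) for AG, 1588 ± 1048 for BS and 1284 ± 184 for OB. Notch3 rose by 5.71 ± 0.44 (SE) on the log2 scale in BS (limma adjusted p = 3.42e-05) and by 5.6 ± 0.44 in OB (limma adjusted p = 4.2e-05), and both calls held in all 25 alternative settings. The pericyte and smooth muscle sum, for whose cells Notch3 is known, was lower in tumours than in AG, at 188 or lower in each tumour library. Most of the AG sum was Acta2, at 52510 to 55940 normalized reads, and Tagln, at 6149 to 6345. Both were called lower in each tumour group, as was Cnn1. Anpep in OB overlapped AG, and Des was at 0 in AG and 4.76 to 17.4 in OB. The part of these cells in the Notch3 difference was not tested.

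Dll1, the activating Delta ligand, was at 8.34, 3.94 and 8.71 normalized reads in AG. It was at 975, 2446 and 3635 in BS_287, BS_295 and BS_296 and at 207, 2567 and 3546 in OB_257, OB_287 and OB_295. All 6 tumour libraries were above AG, with OB_257 and then BS_287 the lowest of them. The mean was 7.0 ± 2.65 (SD, n = 3) in AG, 2352 ± 1332 in BS and 2106 ± 1717 in OB. Dll1 rose by 8.07 ± 1.01 (SE) on the log2 scale in BS (limma adjusted p = 0.000475) and by 7.34 ± 1.01 in OB (limma adjusted p = 0.000803), in all 25 alternatives.

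Dll3 was at 1.67, 1.97 and 3.27 normalized reads in AG, 7 reads in all. In BS it was at 55.4, 2101 and 2840.4, and in OB at 3.32, 443 and 5811, in the same library order as above. OB_257 was therefore at the AG level while OB_295 held the highest value of any library. The ratio of reads to AG, pooled over libraries and scaled by size factors, was 699.8 in BS (95% counting interval 339 to 1741) and 905 in OB (439 to 2252). In OB, 5347 of the 5816 reads were from OB_295. These intervals cover counting error and not the spread among libraries. Dll3 rose in BS by 7.75 ± 2.45 (SE) on the log2 scale (limma adjusted p = 0.0388), but the call ended without any 1 AG library (limma adjusted p up to 0.104), without BS_295 (0.104), without BS_296 (0.117) and without OB_287 (0.0514). In OB the log2 difference was 6.11 ± 2.45 (95% interval 0.52 to 11.70) and did not pass (limma adjusted p = 0.0847). Without OB_257 it was 8.96 and passed (limma adjusted p = 0.0057), whereas without OB_295 it was 3.76 (limma adjusted p = 0.238). The difference also passed by edgeR (adjusted p = 0.0223), by DESeq2 (1.3e-06) and with array weights (limma adjusted p = 0.0229).

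Hes5, a Notch target of neural stem cells, had 0 reads in each AG library. It was at 2293, 1433 and 1225 normalized reads in BS_287, BS_295 and BS_296 and at 34.3, 333 and 1106 in OB_257, OB_287 and OB_295. Every tumour library was above AG, and each BS library was above each OB library. Against a floor of 3 reads per library, which equals 2.91 normalized reads in AG, the mean of 1650.1 ± 566 (SD, n = 3) in BS was at least 567-fold higher and the mean of 491 ± 553 in OB at least 169-fold higher. Hes5 was called higher in BS (limma adjusted p = 0.000134) and in OB (limma adjusted p = 0.00068), and both calls held in all 25 alternatives.

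The sequences before the starts of Hes5 and Hey2 are shown because they alone, of the 7 members with an entry in the RefSeq promoter table of GRCm38.p6, held the RBPJ core motif TGGGAA on either strand (TTCCCA on the reverse). The window is the 250 bases before the start, written 5′ to 3′ on the gene's strand, with the motif matches in capitals. Hes5 lies at chr4:154960673-154960922 on the plus strand and has 2 matches, whose first bases are 226 and 82 bases before the start, in opposite orientations. Hey2 lies at chr10:30842784-30843033 on the minus strand and has 1, at 207 bases before the start.
Hes5: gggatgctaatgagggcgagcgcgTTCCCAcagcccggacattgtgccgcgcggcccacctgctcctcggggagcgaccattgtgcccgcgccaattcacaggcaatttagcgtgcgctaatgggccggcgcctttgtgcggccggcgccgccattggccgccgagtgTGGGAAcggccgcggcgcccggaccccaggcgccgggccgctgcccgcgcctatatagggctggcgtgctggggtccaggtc
Hey2: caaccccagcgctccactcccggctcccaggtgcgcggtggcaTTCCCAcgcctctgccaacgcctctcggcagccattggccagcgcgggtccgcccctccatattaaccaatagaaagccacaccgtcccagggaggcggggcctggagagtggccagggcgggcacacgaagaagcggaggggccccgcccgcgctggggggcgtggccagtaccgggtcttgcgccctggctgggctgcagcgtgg
At least 1 match was present in 21.6% of 32851 promoters of this length, and at least 2 in 2.77%. Notch1, Notch3, Dll1, Dll3 and Dtx1 had 0 matches in this window, which says only that these letters are not there. The promoters of Hes1, Hey1 and Dtx4 were not analysed here. A match is a description of the letters and not a site at which RBPJ was measured.

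Hes1, the broadly expressed counterpart of Hes5, was at 1518, 1499 and 1484 normalized reads in AG, at 2604, 728 and 772 in BS_287, BS_295 and BS_296, and at 23.2, 794 and 328 in OB_257, OB_287 and OB_295. BS lay on both sides of AG, with BS_287 above it. All 3 OB libraries were below AG, and OB_257 was the lowest library by far. The log2 difference from AG was -0.40 ± 1.13 (SE; 95% interval -2.97 to 2.17) in BS (limma adjusted p = 0.81) and -3.02 ± 1.13 (-5.59 to -0.45) in OB (limma adjusted p = 0.0676), a mean of 382 ± 388 (SD, n = 3) against 1500.3 ± 16.7. The OB difference was -1.55 without OB_257 (limma adjusted p = 0.0751), and it passed without OB_287, at -4.07 (limma adjusted p = 0.0205), and with array weights (limma adjusted p = 0.0148). With BS_287 and OB_257 both left out, a choice made after the values were seen, it was -1.55 in OB (limma adjusted p = 0.00919) and -1.0 in BS (limma adjusted p = 0.0486).

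Hey1, which like Hey2 encodes a Hes-related repressor known in the developing heart and vessels, was at 677, 639 and 726 normalized reads in AG. It was at 3993, 344 and 718 in BS and at 304, 2360.1 and 1447 in OB, in the library order above. Tumour libraries lay on both sides of AG in each group. The log2 difference was 0.55 ± 0.95 (SE) in BS (limma adjusted p = 0.69) and 0.57 ± 0.95 (95% interval -1.60 to 2.75) in OB (limma adjusted p = 0.676), and the sign turned in BS without BS_287 (-0.45) and in OB without OB_287 (-0.0351). Without BS_287 and OB_257 the OB difference was 1.44 and passed (limma adjusted p = 0.0131).

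Hey2 was low in most libraries, at 16.7, 14.8 and 14.2 normalized reads in AG, 40.3, 12.8 and 17.7 in BS and 95.1, 18.1 and 38.0 in OB. Each OB library was above AG, with OB_257 the highest, and BS overlapped AG. The log2 difference in OB was 1.36 ± 0.64 (SE; 95% interval -0.09 to 2.81; limma adjusted p = 0.131) and passed by DESeq2 (adjusted p = 0.0436) and without OB_287, at 1.92 (limma adjusted p = 0.0413), whereas without OB_257 it was 0.76 (0.33). In BS it was 0.45 ± 0.64 (limma adjusted p = 0.621).

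Dtx1 was at 0, 0 and 2.18 normalized reads in AG, 2 reads in all. It was at 0, 718 and 536 in BS_287, BS_295 and BS_296, and at 259, 352 and 951 in OB_257, OB_287 and OB_295. All OB libraries were above AG, whereas BS_287 had 0 reads and the other BS libraries were high. Dtx1 rose by 8.24 ± 2.21 (SE) on the log2 scale in OB (limma adjusted p = 0.0203), a ratio of reads of 805 with a 95% counting interval of 223 to 6657. That call ended without AG_1 (limma adjusted p = 0.0682), AG_2 (0.0662) or OB_295 (0.062). With 2 reads in AG, the size of the OB difference also moved with the pseudocount, to 6.31 with 5 and 8.98 with 0.5. In BS the log2 difference of 5.63 ± 2.21 did not pass (limma adjusted p = 0.0801), and without BS_287 it was 8.72 and did (limma adjusted p = 0.000119), whereas without BS_295 it was 3.98 (0.22) and without BS_296 4.19 (0.229). The BS difference also passed with array weights (limma adjusted p = 0.0316), by edgeR (0.0161) and by DESeq2 (0.000378).

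Dtx4, a Deltex gene that AG expressed, was at 2596, 2515 and 2645 normalized reads in AG, at 2165, 1311 and 2743 in BS and at 414, 2154 and 1744 in OB. OB was below AG in each library, mostly so in OB_257, and BS overlapped AG. The log2 difference was -0.38 ± 0.57 (SE) in BS (limma adjusted p = 0.636) and -1.16 ± 0.57 (95% interval -2.46 to 0.14) in OB (limma adjusted p = 0.149), and neither passed in any alternative. Without OB_257 the OB difference was -0.42 (limma adjusted p = 0.311).

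Counted by overlap alone, 7 of the 10 genes had all 3 OB libraries above all 3 AG libraries, against 27.5% of tested genes. Dll3 was among the 7 although OB_257 and AG_3 each had 3 reads of it. Hey2 was among them with 19 reads in OB_287 beside 20 in AG_1, so both rest on the size factors. Dll1, Dll3, Hes5 and Dtx1 passed the filter through tumour libraries alone, so this count partly follows from the filter. Hes1 and Dtx4 had all OB libraries below AG, against 30.8%. In BS, 5 genes had all libraries above AG, against 26.7% of tested genes, 0 had them all below, against 31.8%, and the other 5 overlapped.

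**Figure D2:**
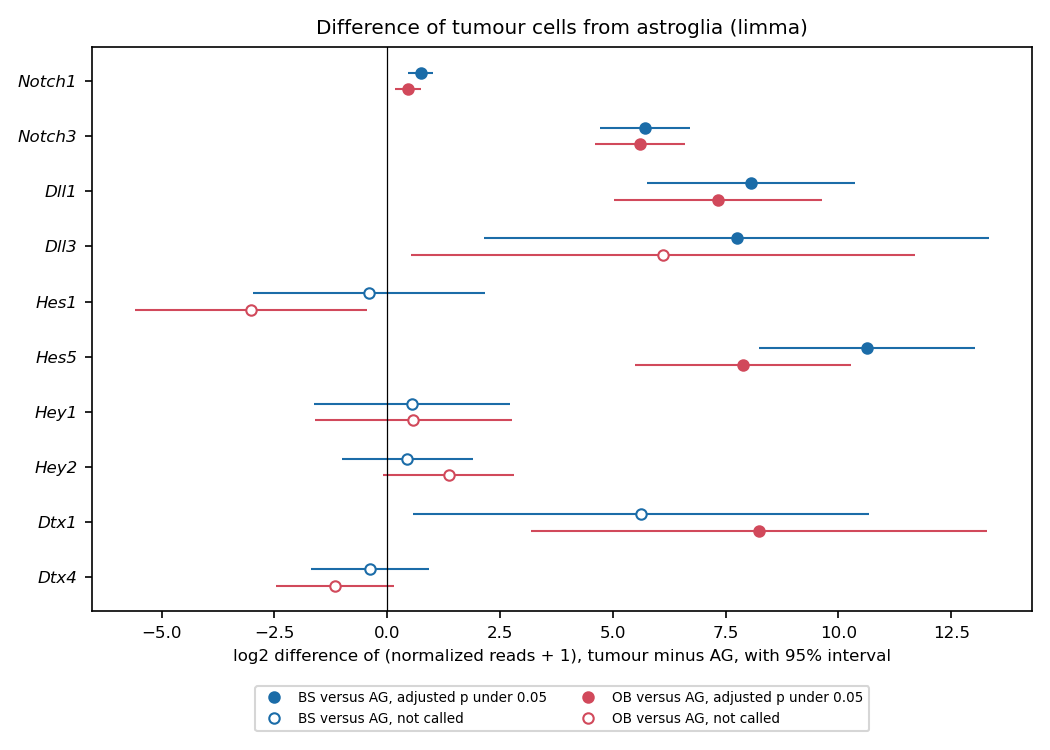
Log2 difference from AG of each of the 10 Notch genes in BS and in OB, with 95% intervals from the limma fit and calls marked. Notch3, Dll1 and Hes5 lie 5.6 or more above AG in both groups, Notch1 lies just above AG with the narrowest interval, and the intervals of Hey1, Hey2 and Dtx4 include 0 in both groups. For Hes5, with 0 reads in AG, the pseudocount of 1 sets the AG level and so the size of the difference.

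Between the tumour sites, OB against BS, limma called 0 of the 10 genes in either direction, as it called 0% of all genes higher and 0% lower. At an unadjusted p under 0.05, 0 were higher and 2 lower, as were 592 and 427 of all tested genes. Both edgeR and DESeq2 called 0 of the 10, where of all genes edgeR called 0 and DESeq2 called 166 higher and 71 lower. The lower genes were Hes5, with a log2 difference of -2.76 ± 1.05 (SE; limma adjusted p = 0.467), and Hes1, with -2.62 ± 1.13 (limma adjusted p = 0.511). For Hes5 and Notch1 each OB library was below each BS library, which was so for 4.63% of tested genes. The Hes5 gap was narrow, since the lowest BS library was at 1225 and the highest OB library at 1106. For Notch1 the log2 difference was -0.27 ± 0.12 (95% interval -0.56 to 0.01; limma adjusted p = 0.531). The intervals of the other genes were wide, such as -1.64 ± 2.45 (SE) for Dll3, so the 0 calls do not show that the sites are alike.

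The 10 genes differed in how much they varied over the 6 tumour libraries. On the log2 scale, Notch1 ranged over 0.35 from the lowest to the highest library, a smaller range than all but 1.37% of tested genes. Dll3 ranged over 10.40, Dtx1 over 9.89, Hes1 over 6.75 and Hes5 over 6.02, and 99.5%, 99.2%, 96.2% and 94.7% of tested genes had a smaller range. Dll1 ranged over 4.13, Hey1 over 3.71, Hey2 over 2.80, Dtx4 over 2.72 and Notch3 over 1.86. The median range was 3.92 for the 10 genes and 1.43 for all tested genes in tumour libraries, and 0.24 and 0.22 in AG. In plain ratios of the highest to the lowest tumour library, these were 112-fold for Hes1, 66.9-fold for Hes5, 17.6-fold for Dll1 and 13.1-fold for Hey1.

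Most extremes fell in a pair of libraries. OB_257 was the lowest tumour library for 6 genes (Dll1, Dll3, Hes1, Hes5, Hey1 and Dtx4) and the highest for Hey2. BS_287 was the highest for 4 (Notch3, Hes1, Hes5 and Hey1) and the lowest for Dtx1, of which it had 0 reads. OB_295 was the highest for Dll3 and Dtx1. Thus in BS_287 the ligands Dll1 and Dll3 were at their lowest in BS while Hes1, Hes5 and Hey1 were at their highest. In OB_257 Dll1, Dll3 and these targets were low together, while Notch1 and Notch3 were near the other OB libraries. Not all ligands ran this way. Jag1 at 5282 and Dll4 at 1612 were highest in BS_287 among BS libraries, and Jag1 at 4684 and Jag2 at 1249 were highest in OB_257 among OB libraries. Dll4 in OB_257, at 40.9, was the lowest of OB, and the ligand-like Dner was lowest in both libraries. Over all tested genes, the mean Pearson correlation with the other 5 tumour libraries was 0.855 for OB_257 and 0.882 for BS_287, and 0.916 to 0.923 for the rest.

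**Figure D3:**
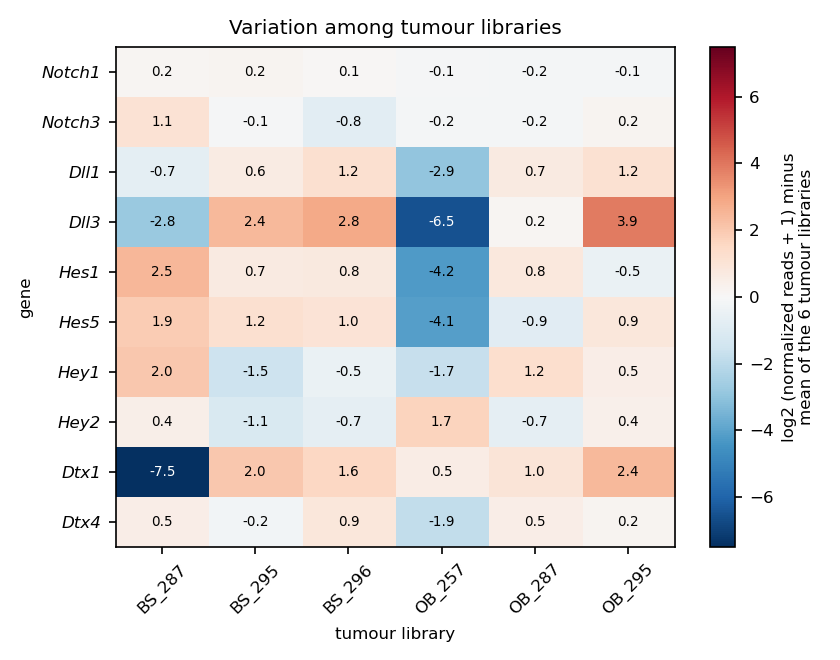
Deviation of each Notch gene in each tumour library from its mean over the 6 tumour libraries, on the log2 scale. OB_257 is far below 0 for Dll3, Hes1 and Hes5 and BS_287 for Dtx1, and the Notch1 values stay near 0.

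Likeness was measured as the root mean square difference of centred log2 values over all 9 libraries, a description with no test in which the AG to tumour step weighs most. The tested genes nearest to Hes5 were E130114P18Rik at 0.82, Zic1 at 1.09 and Eln at 1.14, where the median gene was at 4.68. Among the nearest to Dll1 were Tub at 0.62 and Sox8 at 0.68, with a median of 3.84. Nearest to Dll3 were Grm3 at 1.08, Ramp1 at 1.25 and Kcnd2 at 1.29, with a median of 4.43. Nearest to Hes1 were Sfrp4 at 0.32, Arl4c at 0.60 and Hsd17b11 at 0.62, with a median of 1.97.

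Ratios of related genes within a library were compared between the 6 tumour and 3 AG libraries with an exact two-sided permutation test, whose smallest possible p is 0.0238, and adjusted over 4 ratios. Transcript length cancels in such a difference, so only differences between libraries are read. The log2 ratio of Hes5 to Hes1 was 0.42 ± 1.03 (SD, n = 6; -1.25 to 1.75) in tumours and -10.55 (n = 3) in AG, a difference of 10.97 (exact p = 0.0238, adjusted 0.0476). Since Hes5 had 0 reads in AG, the pseudocount of 1 sets that AG level and the size of the difference, which was 8.64 with a pseudocount of 5 and 11.97 with 0.5. With values under 3 reads raised to that floor and no pseudocount, an alternative chosen after the values were seen, the AG ratio was at most -8.83 in any library and the difference of means was 9.44. Hes5 also passed the filter through tumour libraries alone. It spanned 3 log2 units in tumours although Hes1 and Hes5 each spanned over 6, and both were low in OB_257. That of Notch3 to Notch1 was -2.69 ± 0.59 (-3.55 to -1.79) in tumours and -7.74 ± 0.42 in AG, a difference of 5.05 (exact p = 0.0238, adjusted 0.0476). In both ratios each tumour library lay above each AG library.

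The ratios within the ligands and within the Hey genes overlapped between tumours and AG. For Dll1 to Dll3 the difference was 0.77, with tumour libraries at 2.02 ± 2.48 (SD, n = 6; -0.71 to 5.59) on the log2 scale (exact permutation p = 0.69, adjusted 0.905). For Hey1 to Hey2 it was -0.34, with tumours at 5.06 ± 1.88 (1.67 to 6.95; exact permutation p = 0.905).

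**Figure D4:**
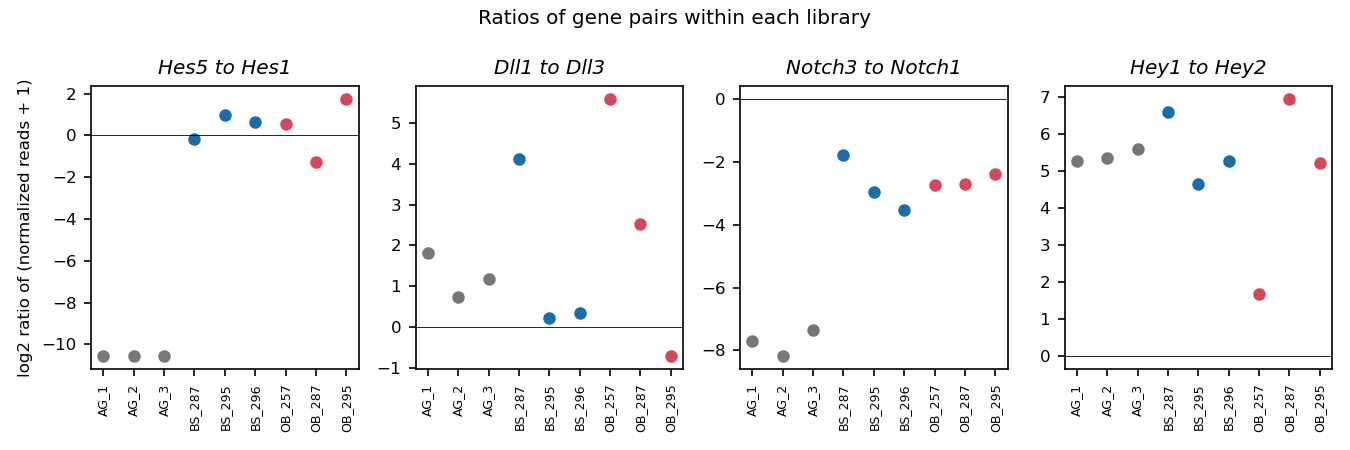
Log2 ratio of 4 pairs of Notch genes in each library, with points for the AG, BS and OB libraries. Hes5 to Hes1 and Notch3 to Notch1 separate all 6 tumour libraries from the 3 AG libraries, and Dll1 to Dll3 and Hey1 to Hey2 do not.

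Of 8 other receptors and ligands, 6 were tested. In OB 4 were called higher and 1 lower, beside 16% and 19% of all tested genes. In BS 3 were called higher and 1 lower, beside 15.6% and 19.5%. Median log2 differences were 3.28 in OB and 1.66 in BS. Dll4, Jag2 and Dner were below 10 normalized reads in each AG library and passed the filter through tumour libraries alone. These counts and medians thus partly follow from the filter. Notch2, a further receptor of progenitors and glia, was at 7759, 7818 and 7421 normalized reads in AG, 2494, 2527 and 2644 in BS and 899, 4499 and 1454 in OB. Every tumour library was below AG, opposite to Notch1 and Notch3. Notch2 fell by 2.09 ± 0.49 (SE) on the log2 scale in OB (limma adjusted p = 0.0111), in all 25 alternatives, and by 1.58 ± 0.49 in BS (limma adjusted p = 0.0348). The BS call ended under upper-quartile and quantile scaling and without any 1 AG or BS library (limma adjusted p up to 0.0947).

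Dner, a Notch ligand-like membrane protein of neurons, was at 5.84, 3.94 and 6.53 normalized reads in AG, 390, 1584 and 496 in BS and 50.8, 1261 and 2717 in OB. It rose by 6.74 ± 1.30 (SE) on the log2 scale in BS (limma adjusted p = 0.00463) and by 6.47 ± 1.30 in OB (limma adjusted p = 0.00549), in all 25 alternatives, and as for Dll1 the lowest tumour library was OB_257. Jag1, a Jagged ligand, was at 878, 929 and 984 in AG, 5282, 1609 and 1821 in BS and 4684, 2458 and 2154 in OB. It was highest in BS_287 and OB_257, in which Dll1 was lowest. It rose by 1.42 ± 0.46 in BS (limma adjusted p = 0.0422) and 1.65 ± 0.46 in OB (limma adjusted p = 0.0237), calls that ended without any 1 AG library, with variance without a trend for BS, without BS_287, BS_296, OB_287 or OB_295 for BS, and without OB_257 for OB (limma adjusted p up to 0.115 and 0.0756).

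Dll4, a Delta ligand of vessel sprouts, was at 1.67, 0.986 and 3.27 normalized reads in AG, 1612, 17.1 and 52.2 in BS and 40.9, 324 and 44.6 in OB. It was above AG in each tumour library, with BS_287 far above the rest. It rose by 5.36 ± 1.54 (SE) on the log2 scale in BS (limma adjusted p = 0.0268) and 4.91 ± 1.54 in OB (limma adjusted p = 0.0374). Both calls ended by DESeq2, with a pseudocount of 5 and without any 1 AG library, and that in OB also without BS_296, OB_287 or OB_295 (limma adjusted p up to 0.0849 in BS and 0.109 in OB). The endothelial markers Cdh5 and Cldn5 were at 0 in AG, and the sum of the 5 endothelial markers ran in AG from 923 to 1035, in BS from 29.6 to 244, and in OB from 11.1 to 234. Nearly all of the AG sum was Flt1, at 910.5 to 1027. Kdr was higher in most tumour libraries than in AG, where its mean was 9.51, and was called in neither group. It was highest in BS_287 at 241.5 and OB_287 at 198.9, the libraries in which Dll4 was highest in each group. The other endothelial markers were near 0 in BS_287, with Cdh5 at 0.84, Tie1 at 1.68 and Cldn5 and Flt1 at 0. In OB_287, Tie1 at 21.9 and Cldn5 at 10.5 were at their highest of any library, and Cdh5 was at 0 and Flt1 at 2.86. The part of endothelial cells in the Dll4 difference was not tested. Jag2 was at 5.0, 8.87 and 3.27 in AG, 95.6, 3.20 and 31.5 in BS and 1249, 57.1 and 122 in OB, and rose in OB by 5.04 ± 1.34 (limma adjusted p = 0.0197), a call lost without AG_1 or AG_3 (limma adjusted p up to 0.0701).

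Among 15 genes of receptor modification and cleavage 11 were tested, with medians of -0.17 in OB and -0.04 in BS. In both comparisons 3 were called higher and 3 lower. Of all tested genes, 16% were called higher and 19% lower in OB, and 15.6% and 19.5% in BS. Mfng, a Fringe that adds sugars to the receptor and so shifts its response to ligands, had 1 read in AG. It passed the filter through tumour libraries alone. It was at 3910, 143 and 614 normalized reads in BS and 979, 1810 and 353 in OB, above AG in every tumour library. It rose by 9.16 ± 1.10 (SE) on the log2 scale in BS (limma adjusted p = 0.000387) and 9.45 ± 1.10 in OB (limma adjusted p = 0.000329), in all 25 alternatives. With 1 read in AG, the pseudocount of 1 largely sets the AG level and so the size of these differences, which the SE does not cover. The sugar-adding enzymes Poglut1 and Rfng rose and Pofut1 fell in both tumour groups, by 0.61 to 1.53 in size. The protease Adam10, which makes the first cut after ligand binding, and the gamma-secretase subunit Ncstn fell in both, where Ncstn fell by 0.96 ± 0.18 in BS (limma adjusted p = 0.00397), and fell by 0.88 ± 0.18 in OB (limma adjusted p = 0.00575), in all 25 alternatives. In OB the calls of Poglut1, Rfng, Pofut1 and Adam10, and in BS those of Poglut1 and Adam10, ended when single libraries were left out (limma adjusted p up to 0.113), AG_1 and AG_3 among them for each. The tumour libraries among them were OB_257 and OB_287 for Poglut1, OB_295 for Rfng and Pofut1, and OB_257, OB_295 and, in BS, BS_296 for Adam10. The OB calls of Pofut1 and Adam10 also ended under upper-quartile and quantile scaling and with variance without a trend, that of Adam10 by edgeR and without BS_287 and OB_257 too, and the BS call of Adam10 under quantile scaling.

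Of 11 genes of ubiquitination and trafficking 8 were tested, with medians of -0.35 in OB and -0.11 in BS. Dtx3l, a further Deltex gene, fell by 3.71 in BS (limma adjusted p = 0.0223), and it fell by 3.46 in OB (limma adjusted p = 0.0292). Fbxw7, which marks the cut receptor for breakdown, rose by 1.57 in BS (limma adjusted p = 0.0214), and Numbl fell by 1.16 in OB (limma adjusted p = 0.0382). The call of Numbl also ended under upper-quartile and quantile scaling and by edgeR, and that of Fbxw7 with array weights and with the single highest row per symbol. Each of the 4 calls ended without AG_2 or AG_3, and also without BS_296 for Fbxw7, without OB_257 or OB_287 for Numbl and without any 1 OB library for Dtx3l in OB (limma adjusted p up to 0.122). Of 17 genes of the RBPJ complex and its cofactors 9 were tested, with medians of -0.50 in OB and -0.05 in BS, and Rbpj itself was not analysed here. Hdac1 rose in OB by 0.71 (limma adjusted p = 0.0247) and Tle2 in BS by 2.37 (limma adjusted p = 0.0158), whereas the coactivator Maml1 fell by 0.65 in OB (limma adjusted p = 0.0169). These 3 calls each ended without AG_1 or AG_2, those of Hdac1 and Tle2 also without AG_3, that of Hdac1 without OB_257 or OB_295, and that of Maml1 under quantile scaling (limma adjusted p up to 0.0802).

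Of the remaining feedback genes Nrarp, a target that limits the Notch complex, was the only 1 tested of 6. It was at 43.4, 35.5 and 22.9 normalized reads in AG, 846, 1779 and 1459 in BS and 79.6, 745 and 1186 in OB, with OB_257 again the lowest tumour library. It rose by 5.27 ± 0.89 (SE) on the log2 scale in BS (limma adjusted p = 0.00235) and by 3.62 ± 0.89 in OB (limma adjusted p = 0.0139), the latter lost without AG_3 (limma adjusted p = 0.0547). Neurod1, a proneural factor of neuronal differentiation with 0 reads in AG, was at 4202, 12.8 and 129 in BS and 4.42, 216 and 3.26 in OB. It was called higher in BS (limma adjusted p = 0.0227) and not in OB (0.163), and the BS call ended with a pseudocount of 5, without any 1 AG library and without BS_296 (limma adjusted p up to 0.0677). In none of these lists was a gene called between OB and BS.

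**Figure D5:**
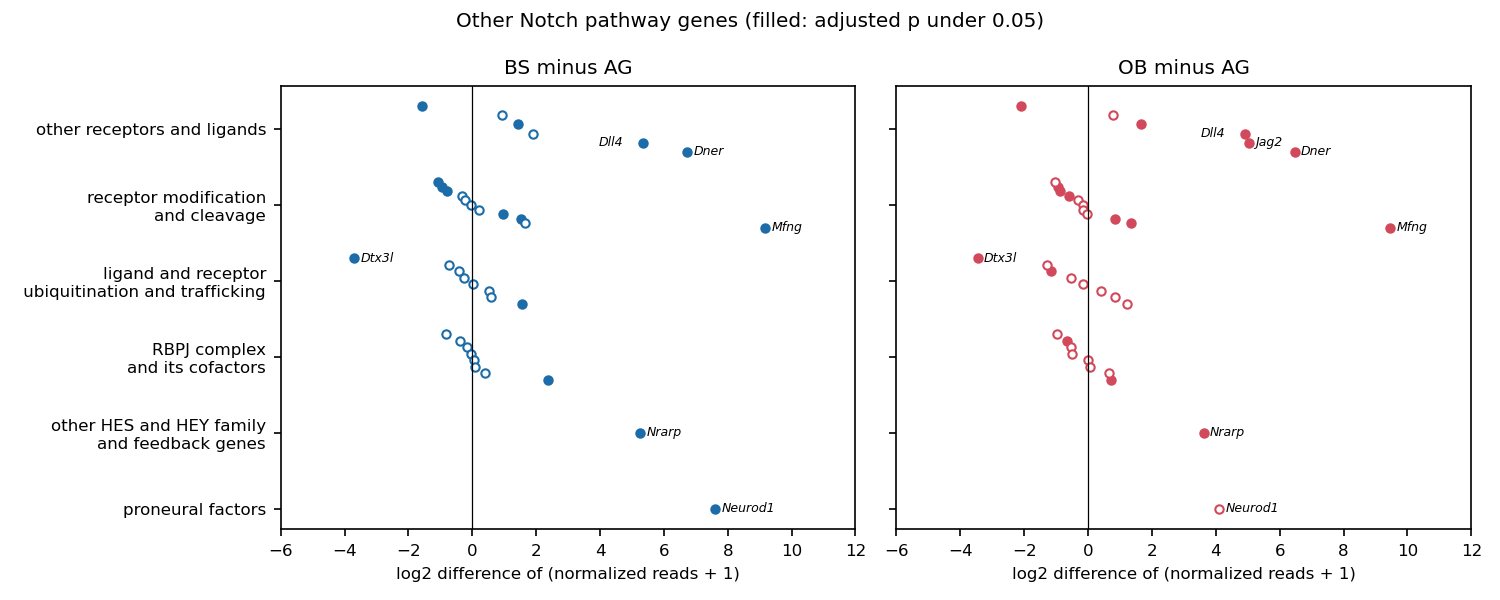
Log2 difference from AG of tested genes of the Notch lists in BS and in OB, with called genes marked. The called genes of the receptors and ligands lie mostly above 0, with Notch2 below it, and those of receptor modification and cleavage lie on both sides of 0.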

How the data were processed

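Per the labels, RNA of AG, BS and OB cells (3 libraries each) was sequenced after preparation with the TruSeq Strand HT kit. The tools in the submitters' processing notes, listed with no role or order, are DESeq2 1.20.0, HISAT2 2.1.0, bcl2fastq 1.8.4, Subread 1.6.2 and featureCounts, and the build is mm9. Neither annotation nor strand setting is given in the sources used here. Values as deposited are a normalized signal, reads divided by 1 size factor per library (0.905 to 1.20), and 100.0% were whole reads within 0.05 reads once the factor was undone. Of 16260 RefSeq transcripts, 17 without a name (0.461% of reads) were left out; the others were summed by symbol. The median transcript was at 259 for genes with 1 annotated transcript and 12.6 for genes with 2, so reads shared between transcripts may be missing. Dll1 and Hes5 have 2 annotated transcripts and the other 8 members 1, and no level is compared between members. The same limit holds for the markers and the other listed genes. Marker sums add reads of different genes with no correction for transcript length or missing reads, so the share of a gene in a sum is of reads only.

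limma 3.58.1 in R 4.3.3 was fitted to log2(value + 1) of 10576 genes with at least 10 in at least 3 libraries: 1 mean per group, trended variance, and two-sided p-values adjusted by Benjamini-Hochberg over all genes of a comparison. Alternatives were DESeq2 1.42.0 and edgeR 4.0.16 on whole reads, pseudocounts, filters, scalings, variance models, replicate blocks and each library left out in turn. The method was tested on simulated data. Counting intervals (exact, 95%) and floors of 3 reads cover counting error only: no molecular identifiers separate copies of 1 molecule. The members, the other Notch lists, the markers and the tests were chosen with earlier results of these data known. Of each list, at most 4 called genes with the largest difference per comparison were named, with Rbpj, Notch2 and Jag1; some genes of these lists are not reported here. Promoters came from a RefSeq table of GRCm38.p6, another build than mm9, and were matched by symbol for 7 of 10 members.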

Additional observations from a re-analysis of the deposited data

How the results depend on the processing

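Alternatives to limma on log2(value + 1) kept Notch3, Dll1 and Hes5 called higher in both tumour groups throughout. For genes near 0 reads in AG, the size of the log2 difference depended on the pseudocount. That of Hes5 in OB was 7.88 with 1, 5.62 with 5 and 8.87 with 0.5. With 1 library left out, the count of genes called higher in OB against AG ran from 3 to 6, and of those called lower from 0 to 1. Array weights called 1 lower in OB. Leaving out BS_287 and OB_257, an alternative chosen after seeing the data, called 1 lower in each comparison with AG. Upper-quartile scaling moved the median of all genes from -0.01 to 0.12 in OB and from -0.03 to 0.14 in BS. Hey2 was not tested under a filter of 50. Where a result changed, the cause was not tested.

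With 1 library left out, the log2 difference of Hey1 ran from -0.0351 to 1.44 in OB against AG and from -0.45 to 1.32 in BS against AG, and that of Hey2 from -0.0081 to 0.78 in BS. Without BS_287 and OB_257 the BS differences were -0.45 for Hey1 and -0.0081 for Hey2.

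Signs between OB and BS, where no gene was called, turned often. Over single libraries left out, the difference ran from -0.54 to 0.39 for Notch3, -1.49 to 0.55 for Dll1, -3.99 to 1.21 for Dll3, -0.74 to 1.03 for Hey1 and -0.49 to 4.26 for Dtx1. Without BS_287 and OB_257 it was 0.45 for Notch3, 0.0169 for Dll1, -0.10 for Dtx1 and 0.0314 for Dtx4. Dll3 was at 0.30 by edgeR and 0.32 by DESeq2. Hey1 was at -0.33 by edgeR, -0.31 by DESeq2, -0.01 under upper-quartile and -0.0189 under quantile scaling.

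A pair of title numbers is shared by BS and OB (BS_287 and OB_287; BS_295 and OB_295), with no label on their meaning. Same-numbered libraries correlated at 0.07 and 0.30 in their deviations, other pairs at -0.41 to 0.29. With the number as a fixed replicate block in BS and OB, the difference was 0.97 for Dll1, 2.22 for Dll3 and 0.20 for Dtx4, and 0 genes were called. A random replicate block called the same number of members as no block, 5, 5 and 0.

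For the ratios, leaving out 1 library gave 10.70 to 11.30 for Hes5 to Hes1, 4.83 to 5.25 for Notch3 to Notch1 and -0.72 to 0.34 for Hey1 to Hey2. Without BS_287 and OB_257 they were 11.09, 4.84 and 0.12, and -0.64 for Dll1 to Dll3. The first pair then missed the adjusted threshold, which these sizes could barely or not reach: the smallest exact permutation p is 0.0357 without 1 tumour library, 0.0714 without 1 AG library and 0.0571 without both libraries.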
